A study of Homo sapiens with 6 samples.

Results

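The lysosomal membrane glycoproteins examined here were the products of 8 genes, LAMP1, LAMP2, LAMP3, CD63, CD68, SCARB2, LAPTM4A and LAPTM4B, taken as named rows of a gene count table of 57773 genes. The list was not blind to these data. LAMP1 is among the genes that the study itself listed as changed after ZNF507 disruption in these same libraries, and the other 7 were added as proteins of the same membrane. For this reason the comparisons that involve the sgZNF507 libraries are given for these genes as descriptions, with sizes and intervals but without p-values. All 8 genes had counts in every library, and 7 passed the filter on low counts and were fitted. CD68 did not pass and is given by its counts.

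HEK293, a line derived from human embryonic kidney, was transiently transfected with Cas9 plasmids (PX459) and selected for 36 h with puromycin, and RNA was taken on day 14. The 3 groups of 2 libraries each received an empty vector (EV), plasmids with 4 target sequences in ZNF146 (sgZNF146) or plasmids with 4 target sequences in ZNF507 (sgZNF507). ZNF146 and ZNF507 are zinc finger proteins that bind LINE-1 repeats, and the comparison asks which transcripts differ once either gene has been disrupted. All 3 groups went through Cas9 transfection and drug selection, and no cloning step is described. Each library thus stands for a mixed population in which gene counts cannot tell edited from unedited cells. The disruptions themselves were done in duplicate, so the libraries of a group stand for separate disruptions.

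Lysosomes are bounded by a single membrane whose lumenal face is lined by heavily glycosylated proteins. LAMP1 and LAMP2 are the most abundant of these, single-pass proteins with a large sugar-coated lumenal domain and a short cytosolic tail that adaptor complexes read during sorting, and LAMP2 also takes part in chaperone-mediated autophagy and in fusion with autophagosomes. LAMP3 (DC-LAMP) and CD68 (macrosialin) share the LAMP fold and are best known from dendritic cells and macrophages. CD63 is a tetraspanin of late endosomes, lysosomes and exosomes, SCARB2 (LIMP-2) is a membrane protein that also serves as a sorting receptor, and LAPTM4A and LAPTM4B are multipass proteins that bind ubiquitin ligases. Many lysosomal genes are known to carry a short palindrome, CACGTG, near their start sites, and the extended form with GT before it or AC after it is the core of the element described for the lysosomal gene network.

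That palindrome is shown here for LAMP1, the member on which the results turn, for CD63, the other member with a match, and for 3 genes of the lysosome that appear later beside LAMP1, ATP6V0D1, VPS11 and CTSA. The windows are RefSeq promoters (250 bases before to 50 after each start, from a table on GRCh38.p14), and the stretches printed were placed by matching them to GRCh37, where each had 1 match. They are written 5′ to 3′ on the strand of the gene, with the CACGTG matches in capitals. The LAMP1 stretch is the whole upstream part at chr13:113951304-113951553 (plus strand). The others are stretches of 60 bases at chr12:56122944-56123003 (CD63, minus strand), chr16:67515091-67515150 (ATP6V0D1, minus strand), chr11:118938459-118938518 (VPS11, plus strand) and chr20:44519914-44519973 (CTSA, plus strand).
LAMP1: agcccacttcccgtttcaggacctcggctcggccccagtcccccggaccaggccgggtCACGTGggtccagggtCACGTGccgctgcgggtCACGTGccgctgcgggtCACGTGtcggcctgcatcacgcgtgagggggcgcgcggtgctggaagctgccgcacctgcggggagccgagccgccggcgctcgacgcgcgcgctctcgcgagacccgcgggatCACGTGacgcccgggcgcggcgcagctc
CD63: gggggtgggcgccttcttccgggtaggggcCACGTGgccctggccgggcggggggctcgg
ATP6V0D1: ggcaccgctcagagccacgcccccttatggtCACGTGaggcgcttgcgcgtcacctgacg
VPS11: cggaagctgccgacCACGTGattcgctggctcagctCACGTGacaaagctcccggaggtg
CTSA: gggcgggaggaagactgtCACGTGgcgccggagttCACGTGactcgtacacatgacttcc

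The LAMP1 window held 6 matches to the palindrome, beginning at bases -192, -176, -159, -142, -28 and -1 from the start, of which the last spans the start and is not printed in full. All 6 were of the extended form (GTCACGTG on either strand), which contains the plain one. The palindrome reads the same on both strands and was found at least once in 7.26% of 35116 promoters, and the extended form in 2.40%. Of these 35116 promoters, 1 held 6 or more matches, that of LAMP1, and 5 held 4 or more. Among the other members with a window, CD63 had 1 match, of the plain form, in 1 of its 8 windows (at base -180), and CD68, SCARB2 and LAPTM4A had 0. A match describes the letters only, and binding at these windows was not analysed here. LAMP2, LAMP3 and LAPTM4B had no entry in the table.

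**Figure D1:**
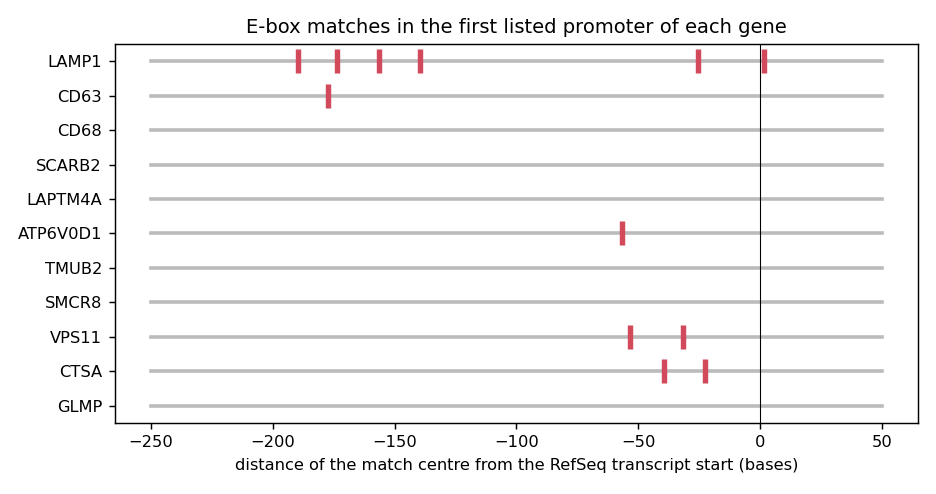
Positions of CACGTG matches (red ticks, at the center of each match) in the first listed RefSeq promoter of the members with an entry and of the other genes named with LAMP1, in bases from the transcript start (x axis, with the vertical line at the start). LAMP1 carries 6 ticks, 4 of them beginning between bases -192 and -142, whereas CD63 and ATP6V0D1 carry 1 each, VPS11 and CTSA carry 2 each and the remaining 6 genes carry 0.

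Library totals ranged from 22724439 to 28524025 counts, and the 10 most counted genes took between 8.95% and 12.5% of them. The 8 genes together held between 0.0553% and 0.0694% of all counts. The line's markers VIM, KRT8, KRT18, NEFM, INA and PAX2 had counts in every library and summed to between 1258 and 1418 CPM (counts scaled to a common library size after TMM normalization), and NEFL was not analysed here. A list of 12 myeloid and dendritic cell genes summed to between 10.6 and 12.3 CPM, with 4 of the 12 passing the filter. ZNF507 was at 72.0 and 75.5 CPM in EV, 71.3 and 73.3 CPM in sgZNF146 and 47.2 and 48.7 CPM in sgZNF507, a log2 fold change of -0.62 (SE 0.07) against EV with an adjusted p of 0.00195 (edgeR quasi-likelihood test, Benjamini-Hochberg). ZNF146 was at 115 and 105 CPM in EV, 99.2 and 103 CPM in sgZNF146 and 88.4 and 101 CPM in sgZNF507. Against EV its log2 fold change was -0.13 (SE 0.08, adjusted p of 1.00, edgeR) in sgZNF146. In sgZNF507, where ZNF146 was not targeted, it was -0.21 (SE 0.08) and was not called either. The sgZNF146 label is thus not checked by a called change in RNA level. The paper checked both disruptions in other ways. By western blot it found almost no ZNF146 or ZNF507 protein in the targeted cells. In the RNA reads it found frequent indels at the target sites that control cells lacked.

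Levels were first compared between the 8 genes, per kilobase of the exons annotated for each gene, since longer genes collect more counts. With this length, the top place differed between the groups. In EV, LAMP1 was at 32.4 and 34.2 CPM per kb, below CD63 at 36.6 and 37.5 CPM per kb, and in sgZNF146 LAMP1 was at 34.7 and 33.8 CPM per kb, below CD63 at 38.0 and 36.3 CPM per kb. In sgZNF507 LAMP1 was at 53.1 and 50.0 CPM per kb, above CD63 at 37.9 and 35.1 CPM per kb. These 2 genes did not overlap within any group. LAPTM4B, between 33.6 and 38.9 CPM per kb over the 6 libraries, overlapped CD63 in each group and LAMP1 in EV and sgZNF146. The mean over all 6 libraries was 39.7 CPM per kb for LAMP1, where first place rests on the sgZNF507 pair, 36.9 for CD63 and 36.0 for LAPTM4B, above 93.8% or more of the 14744 protein-coding genes tested.

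LAPTM4A came next at 30.1 CPM per kb (28.9 to 31.5), below the ranges of the first 3. LAMP2 lay 6.07-fold lower again at a mean of 4.95 CPM per kb, and SCARB2 had 3.31 CPM per kb. LAMP3 had 1.08 CPM per kb, above 24.0% of coding genes, and CD68 0.0872 CPM per kb. From LAPTM4B downward each gene stood apart from its lower neighbor in all 6 libraries. The order depended on the length used, and so did the change of top place between groups. With the longest annotated transcript in place of all exons (1233 bases for CD63, 5242 for LAMP1), CD63 stood above LAMP1 in every library. By mean, CD63 was then first at 72.5 CPM per kb and LAMP1 was next at 43.5. SCARB2 at 11.0 CPM per kb exceeded LAMP2 at 8.06. The same 4 genes were highest under both lengths, and the members best known from myeloid cells, LAMP3 and CD68, were lowest under both. The level of CD68 is uncertain, since most of its exons are shared with another gene, as given below.

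**Figure D2:**
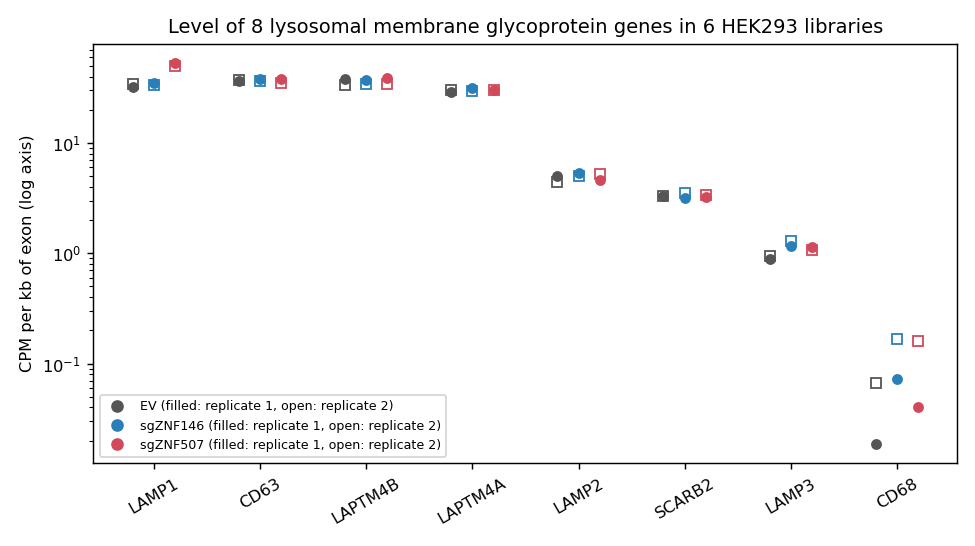
Level of each of the 8 genes in each library, in CPM per kb of exon on a log axis, with genes ordered by their mean, color for the group and filled or open symbols for replicate 1 or 2. LAMP1, CD63, LAPTM4B and LAPTM4A lie between 28.9 and 53.1 CPM per kb, CD68 lies lowest, and the sgZNF507 points of LAMP1 are set above its other 4 points.

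LAMP1 was higher in both sgZNF507 libraries than in the other 4. LAMP1 (ENSG00000185896) occupies bases 113951554 to 113977987 of chromosome 13 (GRCh37, plus strand), with 9 exons in its canonical transcript. It had 4626 and 5430 counts in EV, 5061 and 4889 in sgZNF146 and 7026 and 8323 in sgZNF507. On the CPM scale these were 186 and 196 in EV, 199 and 194 in sgZNF146 and 305 and 287 in sgZNF507. The EV and sgZNF146 libraries overlapped, and the lower sgZNF507 library stood above the highest of them.

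The group means of LAMP1 were 191 ± 7.48 CPM in EV, 197 ± 3.61 CPM in sgZNF146 and 296 ± 12.4 CPM in sgZNF507 (SD, n = 2 each). sgZNF507 exceeded EV by 0.63 on the log2 scale (SE 0.06, 95% interval 0.50 to 0.77), or 1.55-fold. It exceeded sgZNF146 by 0.59 (SE 0.06, 0.45 to 0.72), or 1.50-fold. These are the values by which LAMP1 came to be listed, and they carry no test here. In bulk RNA of a mixed population, more transcript per cell and more cells with a high level cannot be told apart. In sgZNF146, which the choice of LAMP1 did not use but which is set against the same EV libraries, the log2 difference was 0.04 (SE 0.06, 95% interval -0.09 to 0.18, adjusted p = 1.00, edgeR).

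By size of the log2 difference from EV, LAMP1 ranked 12 among 10084 coding genes with a mean of at least 10 CPM in sgZNF507 and 5163 in sgZNF146. Of the 40 genes called in sgZNF507 against EV, it ranked 3 by level and 24 by size of change. Of 11 tested genes within 250 kb of LAMP1, 0 were called in sgZNF507 against EV by edgeR, and their log2 differences had a median of -0.09 and a range of -0.56 to 0.83, with both extremes at genes under 1 CPM. The most abundant of them, CUL4A and PCID2, differed by -0.01 (SE 0.06) and -0.09 (SE 0.07).

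**Figure D3:**
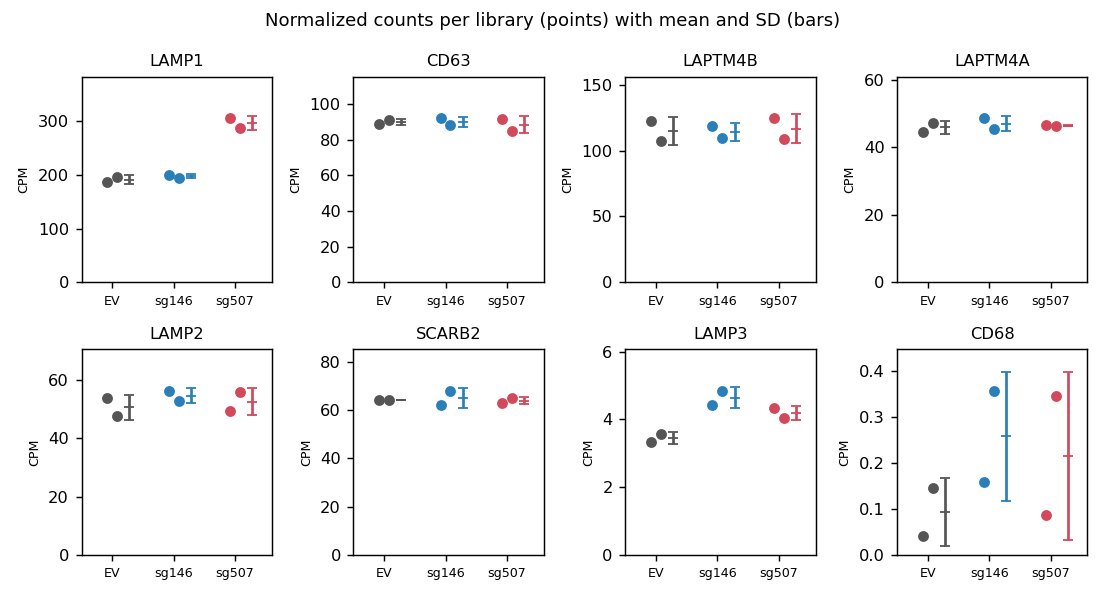
Normalized counts (CPM, y axes from 0, one panel per gene) in the 2 libraries of each group (points), with the group mean and SD (bars). LAMP1 lies at or below 199 CPM in the EV and sgZNF146 libraries and at or above 287 CPM in sgZNF507, LAMP3 is lowest in EV, and in the other panels the groups overlap or, for CD68, rest on at most 10 counts.

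LAMP2, the closest relative of LAMP1, overlapped between all groups. The gene (ENSG00000005893, chromosome X, 119560003 to 119603220, minus strand) had 53.7 and 47.6 CPM in EV, 56.4 and 53.0 CPM in sgZNF146 and 49.3 and 55.9 CPM in sgZNF507. The sgZNF507 libraries span nearly the whole range of the other 4. The log2 difference from EV was 0.06 (SE 0.09, 95% interval -0.14 to 0.25) in sgZNF507 and 0.11 (SE 0.09, -0.08 to 0.31, adjusted p = 1.00, edgeR) in sgZNF146. Per kb of exon, LAMP1 exceeded LAMP2 by 6.41- and 7.64-fold in EV and by 6.54- and 6.79-fold in sgZNF146, against 11.5- and 9.51-fold in sgZNF507. The higher ratio in the sgZNF507 libraries restates the difference for which LAMP1 was listed and is no further result.

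LAMP3, at low level, showed a different pattern. LAMP3 (ENSG00000078081, chromosome 3, 182840003 to 182881627, minus strand) had 83 and 99 counts in EV, 112 and 122 in sgZNF146 and 100 and 117 in sgZNF507. After normalization these were 3.33 and 3.58 CPM, 4.41 and 4.85 CPM, and 4.34 and 4.04 CPM. Both disrupted groups lay above EV without overlap, and sgZNF507 lay below sgZNF146.

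The log2 difference of LAMP3 in sgZNF146 was 0.42 (SE 0.17, 95% interval 0.05 to 0.79), with an unadjusted p of 0.0281 and an adjusted p of 1.00 in the edgeR fit over 22010 genes, so it did not pass. In sgZNF507 the difference was 0.27 (SE 0.17, -0.10 to 0.64). Groups that do not overlap are common with 2 libraries each. They occurred in 28.6% of all genes tested for sgZNF146 against EV, 29.3% for sgZNF507 against EV and 32.1% between the 2 disruptions. Among the 7 fitted members the counts were 1 (LAMP3), 2 (LAMP1 and LAMP3) and 2 (the same genes, with LAMP3 lower in sgZNF507), which are 14.3%, 28.6% and 28.6%. The summed level of the 12 myeloid and dendritic markers, of which between 10 and 12 had counts in a library, was 12.3 and 10.6 CPM in EV, which spans the 4 disrupted libraries at 11.0 to 11.6 CPM.

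CD68 was at the limit of detection. CD68 (ENSG00000129226, chromosome 17, 7482809 to 7485429, plus strand) had 1 and 4 counts in EV, 4 and 9 in sgZNF146 and 2 and 10 in sgZNF507, at most 0.36 CPM. A count of 0 would allow up to 3 counts, and 2 of the 6 libraries were under that, so no fold is given. Most of its exons, 1765 of 2163 bases, are shared with the long noncoding RNA ENSG00000264772 on the same strand, which had between 11 and 26 counts. Another 148 bases are shared with the antisense gene ENSG00000233223, which had between 169 and 244 counts, and whether counting used strand is not given in the sources used here. The CD68 counts are therefore uncertain.

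The tetraspanin and the sorting receptor overlapped between all groups. CD63 (ENSG00000135404, chromosome 12, 56119107 to 56123491, minus strand) had 88.7 and 90.9 CPM in EV, 92.0 and 88.0 CPM in sgZNF146 and 91.7 and 84.9 CPM in sgZNF507. The widest gap between replicates was in sgZNF507. The log2 differences from EV were -0.03 (SE 0.07, 95% interval -0.17 to 0.12) in sgZNF507 and 0.0019 (SE 0.07, -0.14 to 0.15) in sgZNF146. CD63 shares 120 exonic bases with its antisense gene CD63-AS1, which had between 134 and 182 counts against at least 2113 for CD63.

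SCARB2 (ENSG00000138760, chromosome 4, 77079890 to 77155689, minus strand) had 64.0 and 64.0 CPM in EV, 61.9 and 68.0 CPM in sgZNF146 and 62.8 and 64.8 CPM in sgZNF507. Both EV values fell within the range of each disrupted group. The log2 difference from EV was -0.0031 (SE 0.07, 95% interval -0.16 to 0.15) in sgZNF507 and 0.02 (SE 0.07, -0.14 to 0.18) in sgZNF146.

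The groups also overlapped for the LAPTM4 pair. LAPTM4A (ENSG00000068697, chromosome 2, 20232411 to 20251389, minus strand) had 44.6 and 47.2 CPM in EV, 48.7 and 45.4 CPM in sgZNF146 and 46.6 and 46.3 CPM in sgZNF507. Its log2 differences from EV were 0.02 (SE 0.08, 95% interval -0.15 to 0.18) in sgZNF507 and 0.03 (SE 0.08, -0.13 to 0.20) in sgZNF146. LAPTM4B (ENSG00000104341, chromosome 8, 98787285 to 98865241, plus strand) had 122 and 107 CPM in EV, 119 and 109 CPM in sgZNF146 and 125 and 109 CPM in sgZNF507. The library numbered 1 was the higher in each group for LAPTM4B. Its differences from EV on that scale were 0.02 (SE 0.08, 95% interval -0.16 to 0.20) in sgZNF507 and -0.01 (SE 0.08, -0.19 to 0.17) in sgZNF146.

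**Figure D4:**
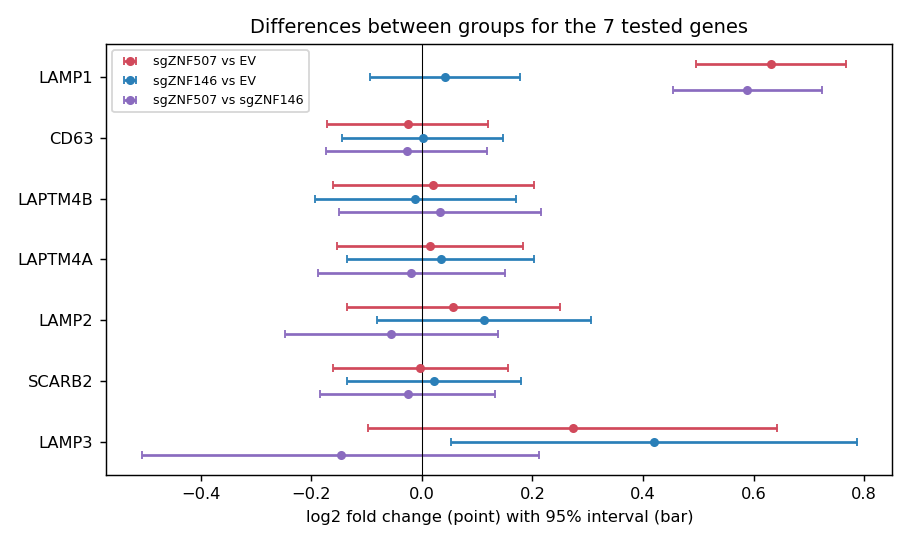
Log2 fold change (points) with 95% interval (bars) of the 7 fitted genes in the 3 comparisons (colors). Both LAMP1 intervals that involve sgZNF507 lie between 0.45 and 0.77, the LAMP3 interval for sgZNF146 against EV lies from 0.05 to 0.79, and all other intervals cross 0.

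Counted over the list, 1 of the 7 fitted members (LAMP1, higher) passed an adjusted p of 0.05 in sgZNF507 against EV, where 0.182% of all genes passed, and 1 (LAMP1, higher) in sgZNF507 against sgZNF146, where 0.173% passed. Nothing is read from these counts, because LAMP1 was listed for this difference. In sgZNF146 against EV, 0 members passed and 0% of all genes passed with edgeR on 6 libraries, whereas 535 of 22010 genes, LAMP3 among them, had an unadjusted p under 0.05. With the 4 compared libraries alone, DESeq2 and edgeR each called 3 genes in sgZNF146, none of them a member. The median log2 difference of the 7 members was 0.02 in sgZNF507 and 0.03 in sgZNF146 against EV, beside -0.0032 and -0.0013 for all genes tested.

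In each library the members other than LAMP1 summed to between 361 and 382 CPM, with the groups overlapping. LAMP1 made up 33.0% and 35.2% of the counts of the 8 genes in EV, 34.3% and 34.5% in sgZNF146 and 44.6% and 44.0% in sgZNF507. The higher share in sgZNF507 again restates the difference for which LAMP1 was listed. The summed level of the others in sgZNF507, 379 and 365 CPM, lay within the range of the EV and sgZNF146 libraries. Across the 6 libraries, the log2 CPM of LAMP1 correlated with that of the 6 other fitted members at r between -0.20 and 0.24, given as a description over 6 libraries that share 3 groups.

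The genes most like LAMP1 over the libraries were found outside the list. Among 10646 genes with a mean of at least 10 CPM, the highest Pearson r with LAMP1 was that of ATP6V0D1 (r = 0.998), followed by TMUB2 (0.995), ATP6V1H (0.994), SMCR8 (0.991) and VPS11 (0.990), each over 6 libraries in which the sgZNF507 pair stands apart. ATP6V0D1 and ATP6V1H encode subunits of the V-ATPase, the proton pump that acidifies the lysosome. VPS11 is a core subunit of the HOPS and CORVET tethering complexes that act before fusion with lysosomes, and SMCR8 is a partner of C9orf72 at the lysosome.

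ATP6V0D1 had 104 and 106 CPM in EV, 108 and 108 CPM in sgZNF146 and 140 and 135 CPM in sgZNF507. VPS11 had 38.2 and 39.6 CPM in EV, 38.1 and 36.6 CPM in sgZNF146 and 62.9 and 59.7 CPM in sgZNF507. For both genes the sgZNF507 libraries were the highest, and the EV and sgZNF146 libraries lay within a few CPM of each other. The log2 differences of sgZNF507 from EV were 0.39 (SE 0.06) for ATP6V0D1, 0.56 (SE 0.08) for ATP6V1H, 0.45 (SE 0.06) for SMCR8 and 0.65 (SE 0.08) for VPS11, which were among the 40 called genes, and 0.11 (SE 0.08) for TMUB2, which was not. These 5 genes were picked by their likeness to LAMP1 in the same libraries, so no p-values are given and the calls are descriptions. Those other than TMUB2 are also on the study's own list. Of 15 alternatives for sgZNF507 against EV, the call was kept in 9 for ATP6V0D1, in 12 for ATP6V1H and SMCR8 and in 14 for VPS11.

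Genes known to act with these proteins were read from lists. Among 31 tested sorting adaptors and partners, 1 (3.23%) was called higher and 0 lower in sgZNF507 against EV, beside 0.114% of all genes called higher and 0.0682% lower, with a median log2 difference of 0.02. It was CTSA, the protective protein of the lysosome that also cleaves the LAMP2A isoform, at 73.4 and 76.6 CPM in EV, 73.5 and 73.3 CPM in sgZNF146 and 113 and 96.4 CPM in sgZNF507, a log2 difference from EV of 0.48 (SE 0.08). CTSA, too, is on the study's list and is no independent evidence, and its call was lost in 6 of 15 alternatives, among them the edgeR fit on the 4 libraries compared.

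The most abundant genes of this list, HSPA8, the cytosolic chaperone that binds LAMP2A, and AP3D1, a subunit of the adaptor complex AP-3 that sorts LAMPs and CD63, differed from EV by -0.07 (SE 0.07) and 0.04 (SE 0.06) in sgZNF507. WWP2, a ubiquitin ligase and next to CTSA in size of difference among the genes reported with at least 10 CPM, had 41.8 and 37.0 CPM in EV, 43.8 and 40.6 CPM in sgZNF146 and 50.7 and 48.3 CPM in sgZNF507. Its log2 difference from EV was 0.33 (SE 0.09, adjusted p = 0.660, edgeR) in sgZNF507, and it was called only when the replicate number was a block (adjusted p = 0.00279, edgeR).

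Among 30 other lysosomal membrane proteins, 0 were called higher and 1 (3.33%) lower in sgZNF507 against EV, beside 0.0682% of all genes called lower, with a median of -0.01. It was GLMP, a glycosylated lysosomal membrane protein that pairs with and stabilizes the transporter MFSD1. GLMP had 34.3 and 40.5 CPM in EV, 34.6 and 38.6 CPM in sgZNF146 and 10.7 and 12.2 CPM in sgZNF507. Its log2 difference was -1.71 (SE 0.11) from EV and -1.68 (SE 0.11) from sgZNF146, opposite in direction to LAMP1, and the study lists it as well. MFSD1 itself had a log2 difference of 0.27 (SE 0.13, adjusted p = 1.00, edgeR), and the most abundant of the list, CD164 and PLD3, -0.01 (SE 0.07) and -0.08 (SE 0.06). This list is not exhaustive. SPNS1, SLC38A7 and CLCN7, transporters of the lysosomal membrane outside it, were called higher in sgZNF507 against EV, at 0.89, 0.61 and 0.45. So were the V-ATPase subunits ATP6V0D1 and ATP6V1H given above. All of these are on the study's list and are no independent evidence.

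The closest relatives by family and the enzymes that build the glycans of these proteins gave 0 calls in every comparison by edgeR, where at most 0.182% of all genes were called. In sgZNF507 against EV 0 genes of either list had an unadjusted p under 0.05 by edgeR, beside 3.39% of all genes. By the same measure the sorting list had 3 of 31 (9.68%) and the other lysosomal membrane proteins 2 of 30 (6.67%). Of 20 tetraspanins, scavenger receptors and other relatives, 16 were tested, with a median of 0.02 in sgZNF507 against EV. CD81 and TSPAN3, tetraspanins like CD63, were the most abundant and differed by 0.03 (SE 0.07) and -0.03 (SE 0.07). TSPAN4 and TSPAN14, with the largest differences among relatives of at least 10 CPM, had 0.12 (SE 0.09) and 0.08 (SE 0.10).

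All 24 genes of N-glycan synthesis and branching were tested, with a median of 0.0020 and a range of -0.17 to 0.18 in sgZNF507 against EV. GANAB, which trims glucose from new glycans, and RPN2, a subunit of the oligosaccharyltransferase, differed by 0.05 (SE 0.06) and 0.04 (SE 0.07). The ends of the range were DAD1, another subunit of that transferase, at -0.17 (SE 0.08) and the sialyltransferase ST6GAL1 at 0.18 (SE 0.12). In sgZNF146 against EV, 0 genes of the 4 lists were called by edgeR, with medians between -0.01 and 0.03. These lists were drawn up with earlier results of the same libraries known, and their counts describe them without testing them.

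**Figure D5:**
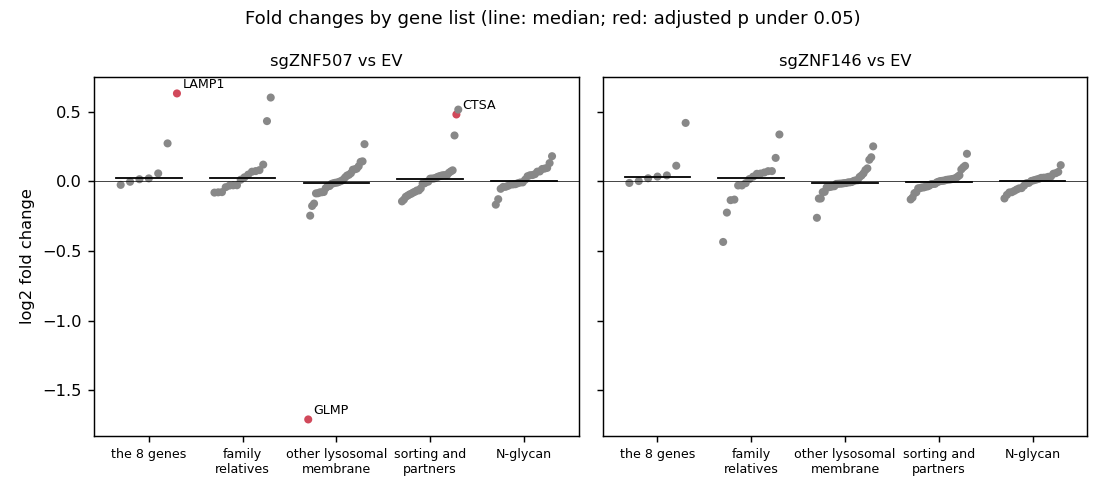
Log2 fold change of every fitted gene of the 5 lists (points, spread by rank within each list) against EV in sgZNF507 (left) and sgZNF146 (right), with the list median as a line and genes past an adjusted p of 0.05 in red. LAMP1 at 0.63, CTSA at 0.48 and GLMP at -1.71 are the red points on the left, there are 0 on the right, and every median lies between -0.01 and 0.03.

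Among the called genes named with LAMP1, the palindrome shown above was present near the start sites of some and missing from others. VPS11 and CTSA had 2 matches in their first listed window and ATP6V0D1 had 1. SMCR8 and GLMP, also called, had 0, as had TMUB2, which was not called. Windows of the remaining called genes are not reported here. Over the lists, 2 of 5 members with a window, 2 of 13 relatives, 6 of 26 other lysosomal membrane proteins, 4 of 23 sorting genes and 2 of 19 glycan genes held CACGTG in at least 1 window, beside 8.77% of all 27305 genes with windows. ATP6V1H had no entry.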

How the data were processed

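RNA from 6 HEK293 libraries was prepared with a strand-specific, ribosome-depleted kit and sequenced as paired reads of 50 bp. The authors clipped the reads, removed ribosomal reads with Bowtie, mapped the rest to hg19 with TopHat2 and counted them per Ensembl gene with featureCounts. Whether counting used strand, and how reads with several matches were treated, is not given in the sources used here. The deposited values are raw whole-number counts per gene and library, without normalization and without molecular identifiers, so PCR copies count as reads. Floors taken from counts cover counting error only. The intervals given with differences come from the fit described below and also include the variation between replicates.

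Groups and replicate numbers were taken from the labels. Symbols, exons and coordinates follow GENCODE on GRCh37, where 96.1% of identifiers were found. Counts were filtered with filterByExpr (22010 genes kept), normalized by TMM and fitted over all 6 libraries with glmQLFit in edgeR 4.0.16 under R 4.3.3, and the 3 contrasts were tested with glmQLFTest. The Benjamini-Hochberg adjustment ran over all fitted genes, and calls used a threshold of 0.05. SEs were derived from the F statistic, and 95% intervals use the degrees of freedom of the fit. Totals of 22724439 to 28524025 counts and a common dispersion of 0.0052 set the precision. Replicates differed by more than sampling noise (chi-square per degree of freedom between 6.38 and 9.60). CPM per kb divides by the union of exons in the GENCODE annotation. The authors counted on Ensembl gene models, so the exons used for length can differ from those counted. This bears on levels and ratios per kb between genes and was not tested. Likeness to LAMP1 is Pearson r of log2 CPM (prior count 2). The steps were tested on simulated data.

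The members and lists were chosen with earlier results of these data known. Named genes are the 8 members, the 2 targets, the 5 genes most like LAMP1 and, in each list, those past the threshold, the 2 most abundant and the 2 with the largest change in sgZNF507 among genes of at least 10 CPM. CUL4A, PCID2, SPNS1, SLC38A7 and CLCN7 were named after their values were seen. Alternatives were other normalizations (DESeq2-style size factors, upper quartile) and filters, DESeq2 1.42.0 on 6 or 4 libraries, edgeR on 4 libraries, the replicate number as a block and leaving out each library. Indels, binding data and proteins were not analysed here. 1 gene of the sorting list is not reported here.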

Additional observations from a re-analysis of the deposited data

Results flagged for a closer look

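Between the 2 disruptions, each set against the same EV libraries, the log2 fold changes of 7 named genes differed in the direct contrast of sgZNF507 with sgZNF146 (edgeR, Benjamini-Hochberg over all genes). The difference, given as sgZNF507 minus sgZNF146, was 0.59 for LAMP1, with both sgZNF507 libraries above both sgZNF146 libraries, and it is a description since LAMP1 was listed for its change in sgZNF507. It was 0.35 for ATP6V0D1, 0.50 for ATP6V1H, 0.46 for SMCR8 and 0.71 for VPS11, genes picked for their likeness to LAMP1. It was 0.51 for CTSA. It was -1.68 for GLMP, the only one of the 7 that was lower in sgZNF507. With the 15 alternatives of this contrast the call was kept in 15 for LAMP1, VPS11 and GLMP and in 12 for CTSA and SMCR8. It was kept in 8 for ATP6V1H and in 7 for ATP6V0D1, whose call was lost also under upper quartile normalization. All 7 genes were named for values in these same libraries, so the kept calls describe the settings and are no independent evidence. Groups of 2 libraries are too small for a search for single outlying samples.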

How the results depend on the processing

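LAMP1 was the only member called in sgZNF507 against EV and against sgZNF146, and 0 members were called in sgZNF146 against EV, under all 15 alternatives of each comparison. The log2 difference of LAMP1 from EV in sgZNF507 ranged from 0.63 to 0.64 over the other settings and from 0.59 to 0.69 with 1 library left out. LAMP1 was listed for this difference in these same libraries, so its kept call and its range describe the settings and are no independent evidence. The number of genes called varied more. In sgZNF507 against EV it was 40 as reported and 101 without a filter on low counts. Leaving out 1 library gave 12 to 44, with 12 without EV replicate 1, 22 without EV replicate 2 and 25 without sgZNF507 replicate 1. In sgZNF507 against sgZNF146 it was 38 as reported, 112 without the filter and 13 to 37 with 1 library left out, with 13 without sgZNF146 replicate 1 and 23 without sgZNF146 replicate 2. In sgZNF146 against EV it was 0 as reported, 19 without the filter, 3 with DESeq2 and 3 with edgeR on the 4 libraries compared, and 0 to 3 with 1 library left out. The cause was not tested.

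With the replicate number as a block, edgeR called 121, 33 and 196 genes in sgZNF507 against EV, sgZNF146 against EV and sgZNF507 against sgZNF146, and DESeq2 with the block called 63, 0 and 75. The sorting list went from 1 to 2 calls in sgZNF507 against EV with edgeR and the block, through WWP2. LAMP1 was the only member called. The labels do not say what a number shares, and the deviations of same-numbered libraries correlated at r = 0.14 (EV and sgZNF146), 0.18 (EV and sgZNF507) and 0.15 (sgZNF146 and sgZNF507) across 22010 genes, which are not independent. The fit reported has no block.

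Small differences of uncalled members in sgZNF146 against EV changed sign. CD63 was at -0.0010 without the filter. With 1 library left out, CD63 ranged from -0.031 to 0.033, LAPTM4A from -0.017 to 0.082, LAPTM4B from -0.11 to 0.084 and SCARB2 from -0.048 to 0.087. In sgZNF507 against EV, leaving out 1 library likewise took uncalled members across 0, with LAMP2 from -0.033 to 0.15, CD63 from -0.083 to 0.041, SCARB2 from -0.015 to 0.017, LAPTM4A from -0.021 to 0.053 and LAPTM4B from -0.081 to 0.13. Of the partners, CTSA kept its call in sgZNF507 against EV in 9 of 15 alternatives and GLMP in 15 of 15. Using the longest transcript as length, 4 of the 8 genes kept their place in the order of levels, which leaving out a library did not alter. The same 5 genes were most like LAMP1 under DESeq2-style size factors, an alternative chosen after seeing the data, as were those for the named genes that are no members. With 2 libraries per group, only LAMP3 among the members had an SE over 0.1, and CD68 could not be fitted.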
